A study of Mus musculus with 12 samples.

Results

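Mouse chromosome 3 was examined because its share of Okazaki fragment reads was lower in both KMT2C/D mutants than in the control. The region is the whole chromosome in the mm10 assembly, 160039 bins of 1 kb out of 2725511 in the deposited tracks. Of these bins, 156399 were usable, having under 500 unknown bases and no extreme count. The chromosome was selected on its measured read share in these tracks, mutant over control, so the read ratios below are descriptions, and only fork polarity and base composition were not used in the choice.

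OK-seq captures short EdU-labelled Okazaki fragments, the pieces in which the lagging strand is made. As a fork leaves its fragments on one strand only, the share of reads on the Crick strand (Crick percentage) gives the direction in which forks travel. It steps up from left to right where forks start and comes down where forks from both sides merge. The number of reads over a region follows how many copies of it are being replicated and how well its fragments are captured and mapped.

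OK-seq was done in naive ESCs, grown with LIF and 2i, and in EpiLCs, their formative derivatives. The control (KMT2C KO) lacks KMT2C, the KMT2C/D dKO lacks KMT2C and KMT2D, and the KMT2C/D dCD lacks the catalytic activity of KMT2C and KMT2D, both being H3K4 monomethyltransferases of enhancers. By the methods, KMT2D was deleted with 4-hydroxytamoxifen in a CreER-expressing KMT2C KO/KMT2D cKO line of a mixed background that includes C57BL/6, while the KMT2D cCD cells derive from R1, a male line of a single-strain background without C57BL/6. The 12 samples, 2 replicates in each of 6 groups, reach the files as 6 tracks with the replicates summed, so that every comparison below is between single tracks, without a replicate check, and all intervals are 95% intervals of counting error only. In the dCD comparisons, the mutation and the strain or line it came from cannot be told apart. A different number of DNA copies and a different yield of fragments per copy cannot be told apart either, and fewer in the mutants would give the same ratios as more in the control that both mutants share.

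The tracks held 3655095 to 4409068 reads in naive ESCs and 11407678 to 13601460 in EpiLCs, and 215731 to 818777 of them lay on chromosome 3. A 1 Mb window of the chromosome had a median of 1352 reads in the shallowest track and 5203 in the deepest. Single windows of naive ESCs are therefore the least certain values.

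The chromosome holds developmental regulators such as Sox2, a core transcription factor of pluripotency, and Shox2, a homeobox gene of limb and heart. To show what sequence lies at the sites the results turn on, the 250 bases before the RefSeq start (GRCm38.p6, the assembly of mm10) are given, 5′ to 3′ in the direction of the gene. CpG dinucleotides are in capitals. Shox2, Rabggtb (which encodes part of an enzyme that attaches lipids to Rab proteins) and Ect2 (a cytokinesis exchange factor) start within 5122 bases of 3 of the strongest fork starts. Fgf2, Camk2d and Ank2 lie in stretches where the dCD tracks read lowest. Sox2 was the 1 listed gene around which the EpiLC dKO track read above its control beyond counting error. Of windows of 500 kb, 8 of 314 on chromosome 3 did so too.
Shox2 (chr3:66981772-66982021, minus strand): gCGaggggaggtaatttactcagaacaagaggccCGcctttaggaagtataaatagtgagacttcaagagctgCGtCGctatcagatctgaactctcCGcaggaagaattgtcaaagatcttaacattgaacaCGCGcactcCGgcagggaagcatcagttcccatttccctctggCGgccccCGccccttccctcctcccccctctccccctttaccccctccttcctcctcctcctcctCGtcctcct
Rabggtb (chr3:153912967-153913216, minus strand): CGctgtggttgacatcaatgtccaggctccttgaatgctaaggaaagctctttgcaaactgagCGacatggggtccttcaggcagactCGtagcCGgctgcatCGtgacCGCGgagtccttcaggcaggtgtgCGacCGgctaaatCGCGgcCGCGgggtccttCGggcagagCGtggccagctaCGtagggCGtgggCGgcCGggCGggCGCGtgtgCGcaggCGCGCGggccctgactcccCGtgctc
Ect2 (chr3:27153879-27154128, minus strand): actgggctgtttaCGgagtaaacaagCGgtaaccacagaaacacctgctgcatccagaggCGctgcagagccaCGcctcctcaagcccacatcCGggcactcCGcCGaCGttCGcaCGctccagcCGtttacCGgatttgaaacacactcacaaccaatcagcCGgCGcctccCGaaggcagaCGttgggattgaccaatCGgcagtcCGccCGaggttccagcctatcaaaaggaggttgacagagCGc
Fgf2 (chr3:37348403-37348652, plus strand): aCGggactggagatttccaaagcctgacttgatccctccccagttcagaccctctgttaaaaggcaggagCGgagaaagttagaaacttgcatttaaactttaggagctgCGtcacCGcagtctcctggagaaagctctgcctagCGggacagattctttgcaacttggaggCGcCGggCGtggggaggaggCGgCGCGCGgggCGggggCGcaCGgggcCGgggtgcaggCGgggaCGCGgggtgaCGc
Camk2d (chr3:126596701-126596950, plus strand): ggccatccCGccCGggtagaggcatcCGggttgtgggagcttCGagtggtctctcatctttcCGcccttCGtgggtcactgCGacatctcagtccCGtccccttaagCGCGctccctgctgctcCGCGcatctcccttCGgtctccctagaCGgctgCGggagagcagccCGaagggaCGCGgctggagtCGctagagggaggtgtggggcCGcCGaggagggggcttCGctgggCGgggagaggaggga
Ank2 (chr3:127499116-127499365, minus strand): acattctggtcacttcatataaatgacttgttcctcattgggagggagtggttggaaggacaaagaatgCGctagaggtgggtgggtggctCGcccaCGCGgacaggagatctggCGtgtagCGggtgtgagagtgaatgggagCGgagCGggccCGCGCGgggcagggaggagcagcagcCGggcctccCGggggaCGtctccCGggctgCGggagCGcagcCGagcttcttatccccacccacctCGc
Sox2 (chr3:34649745-34649994, plus strand): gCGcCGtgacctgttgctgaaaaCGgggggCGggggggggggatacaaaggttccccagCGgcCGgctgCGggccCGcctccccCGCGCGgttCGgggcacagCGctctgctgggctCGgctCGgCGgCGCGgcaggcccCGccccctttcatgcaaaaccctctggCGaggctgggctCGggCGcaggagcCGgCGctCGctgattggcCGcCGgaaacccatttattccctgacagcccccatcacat
These sequences hold between 11 CpGs (Shox2) and 27 (Rabggtb and Sox2), against a median of 6 over 32851 such promoters and 5 over the 1637 of chromosome 3. Of all promoters, 35.6% hold at least as many as Shox2, 17.9% as many as Ect2 or Fgf2 and 8.56% as many as Sox2. All 7 thus lie above the median promoter in CpG, and the counts describe these windows only.

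In the naive control, 6.44% (6.41 to 6.46) of the reads of the autosomes and chromosome X came from chromosome 3. The share was 6.11% (6.09 to 6.13) in naive KMT2C/D dKO and 5.93% (5.91 to 5.95) in naive KMT2C/D dCD. In EpiLCs the 3 shares were 6.40% (6.39 to 6.42) in the control, 6.13% (6.11 to 6.14) in the dKO and 6.03% (6.02 to 6.04) in the dCD. The order was the same in both states, with the control highest and the dCD lowest.

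The share in naive dKO was 0.949 of that of its control (0.944 to 0.954), and in EpiLC dKO 0.957 (0.954 to 0.960). In the dKO, chromosome 3 was the lowest of the 20 chromosomes in both states, while the other 18 autosomes lay between 0.996 and 1.01 (naive) and between 0.994 and 1.01 (EpiLC). The dKO tracks were thus close to their control on every other autosome. Chromosome X was at 1.01 (0.998 to 1.01) in naive ESCs and at 0.968 (0.963 to 0.973) in EpiLCs.

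The dCD ratio was 0.921 (0.916 to 0.926) in naive ESCs and 0.942 (0.939 to 0.945) in EpiLCs. Chromosome 3 was again the lowest of 20, but the other autosomes spread more widely, from 0.952 (chromosome 14) to 1.11 (chromosome 6) in the naive state and from 0.961 (chromosome 18) to 1.06 (chromosome 6) in EpiLCs. In the dCD the chromosome was therefore the end of a wide range rather than a lone exception. No other autosome was under 0.95 in any of these 4 comparisons.

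**Figure D1:**
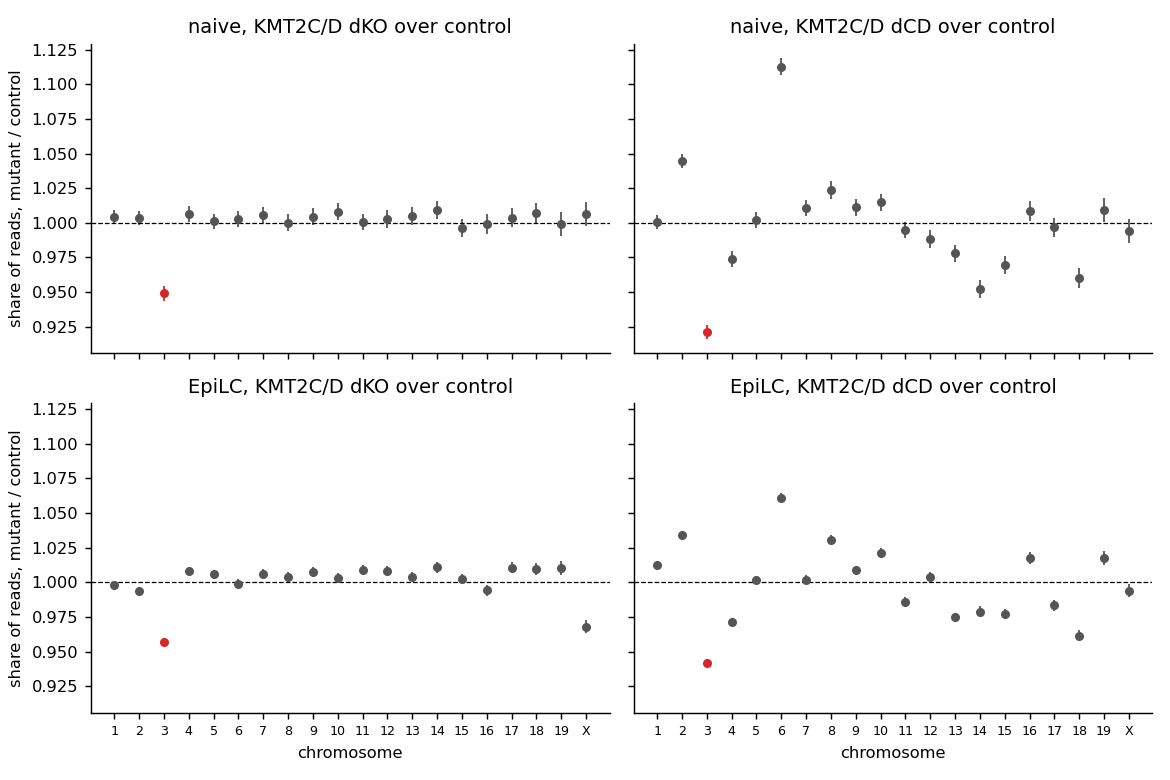
Share of reads in each mutant track over that of the control of the same state, for the 19 autosomes and chromosome X; bars are 95% intervals of counting error. Chromosome 3 (red) lies at 0.949 and 0.957 in the dKO, where the other autosomes sit near 1, and at 0.921 and 0.942 in the dCD, where they spread from 0.952 to 1.11.

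The mutants did not share this position when set against each other. In naive ESCs the dCD share of chromosome 3 was 0.971 of that of the dKO (0.965 to 0.976), the 4th lowest of 20 chromosomes, and in EpiLCs 0.984 (0.981 to 0.987), the 8th lowest. Between states of one genotype, the EpiLC share over the naive share was 0.995 (0.990 to 0.999) in the control, 1.0 (0.998 to 1.01) in the dKO and 1.02 (1.01 to 1.02) in the dCD. These values lay inside the range of the other autosomes. The chromosome stood at the edge of the range only where the control was set against a mutant. As that contrast chose the chromosome, this position was largely given by the choice.

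Both strands were lower. In naive dKO the ratio was 0.95 (0.943 to 0.958) for Watson and 0.948 (0.941 to 0.955) for Crick reads, and in EpiLC dKO it was 0.957 for each. For the naive dCD track, Watson reads gave 0.918 (0.910 to 0.925) and Crick reads 0.925 (0.917 to 0.932). For EpiLC dCD they gave 0.945 (0.941 to 0.949) and 0.939 (0.935 to 0.943). The Crick percentage of the whole chromosome stayed between 49.9 and 50.2 in the 6 tracks.

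To see which tracks stand apart on this chromosome, its reads were compared with those of windows of like base composition in the same track. The measure uses the same chromosome 3 reads that chose the chromosome, so that higher values in the controls than in the mutants were largely given by the choice, and it describes only where each track lay among its own autosomes. Reads per 1 Mb of chromosome 3 rose with GC content in every track (Pearson's r across 157 windows between 0.827 and 0.892, a description, as the windows share a library), and with a mean of 40.5% GC only chromosome X was poorer in GC. In the naive control, chromosome 3 held 1.08 times the reads of 1 Mb windows of the same GC percentage on the other autosomes. For the EpiLC control the value was 1.07. No other autosome was as high in either control, the next being at 1.04 in both.

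In the dKO the same measure was 1.02 in both states, which put chromosome 3 in 3rd place of 19 in naive ESCs and in 4th place in EpiLCs. In the dCD it was 0.994 in naive ESCs (7th) and 0.984 in EpiLCs (9th). Over the other autosomes the median was between 0.971 and 0.990 in the 6 tracks. By this measure chromosome 3 was outside the range of the other autosomes in the 2 control tracks and inside it in the 4 mutant tracks.

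**Figure D2:**
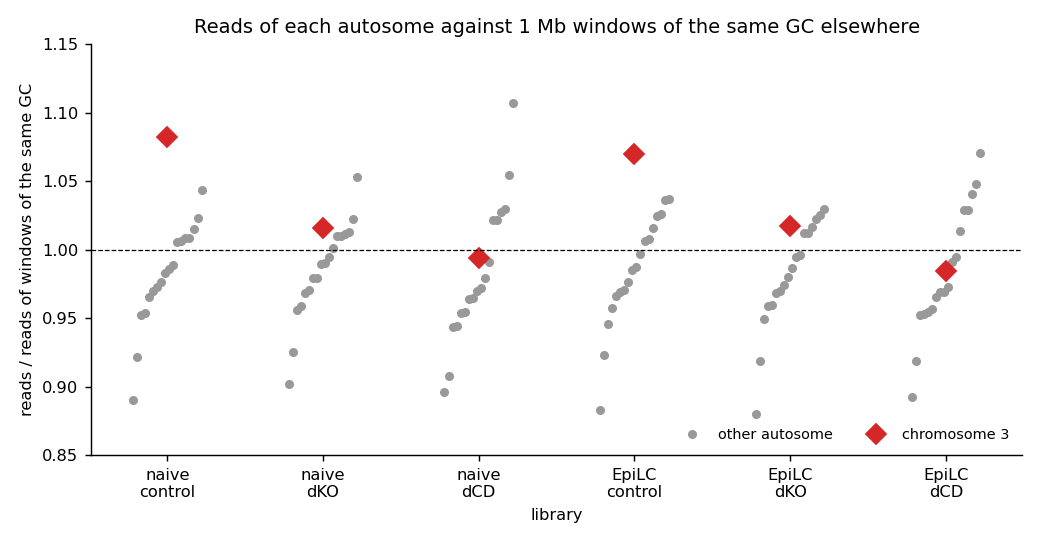
Reads of each autosome divided by the median reads of 1 Mb windows of the same GC percentage on the other autosomes, in each of the 6 tracks; grey points are the 18 other autosomes in order of value. Chromosome 3 (red) is highest in both controls, at 1.08 and 1.07, and lies among the other autosomes in the mutants, between 0.984 and 1.02.

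Read density per usable Mb, without regard to GC, gave another picture of which tracks stood apart. Relative to the median autosome, chromosome 3 was at 1.01 (naive) and 1.0 (EpiLC) in the control tracks. It was at 0.954 and 0.957 in naive and EpiLC dKO and at 0.946 and 0.957 in naive and EpiLC dCD. From the highest density, its rank among the 19 autosomes was 7 in the naive and 10 in the EpiLC control, 14 in both dKO tracks, and 18 and 17 in naive and EpiLC dCD. By density the chromosome was thus in the middle of the autosomes in the controls and low among them in the mutants, and which tracks were the unusual ones depended on the measure.

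At the scale of 20 Mb, the difference between dKO and control was seen in every segment of the chromosome. In each of its 8 segments of 20 Mb the ratio was under 1 in all 4 comparisons, and every interval excluded 1. Segments of this size were not measured on other chromosomes, so how often an interval excludes 1 there is not known. Segments lay between 0.940 and 0.961 in naive dKO and between 0.944 and 0.979 in EpiLC dKO. The dCD segments ranged from 0.897 to 0.959 in naive ESCs and from 0.911 to 0.967 in EpiLCs.

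In windows of 5 Mb, naive dKO read under the control in 30 of 31, where 46.1% of all windows of the genome did so, and EpiLC dKO in 30 of 31 (47.3% of all windows). Counting intervals lay wholly below 1 in 27 and 29 of the 31 windows and wholly above 1 in 0. On the other chromosomes, 44 and 86 of 474 windows lay wholly below 1, and 84 and 107 wholly above 1. The lowest naive window, chr3:155000001-160000000, was at 0.912 (0.883 to 0.941, 6778 against 8328 reads), and the highest, chr3:145000001-150000000, at 1.0 (0.975 to 1.03). The EpiLC dKO windows ran from 0.901 (0.883 to 0.919) at chr3:45000001-50000000 to 1.0 (0.984 to 1.02) at chr3:20000001-25000000. The highest window of each state was thus at the level of the control, and none of the 31 was above it beyond counting error. Under 0.95 were 18 of 31 windows in naive dKO (5.74% of all windows) and 11 in EpiLC dKO (5.35%), and under 0.85 were 0 in each (0.0% of all windows). Both states were under 1 in 29 of the 31 windows, against 82 of 474 on the other chromosomes.

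Naive dCD read under the control in all 31 windows (49.3% of all windows of the genome) and EpiLC dCD in 30 (46.1%). The lowest was chr3:35000001-40000000 in both states, with 0.831 (0.805 to 0.857) in naive ESCs and 0.854 (0.839 to 0.869) in EpiLCs. The highest naive value was 0.988 (0.959 to 1.02) at chr3:50000001-55000000. In EpiLCs the highest was chr3:20000001-25000000 with 1.04 (1.02 to 1.06), the single window of the chromosome with an interval above 1. On the other chromosomes, 189 of 474 windows had such an interval in EpiLC dCD. Under 0.95 were 26 windows in naive dCD (18.8% of all windows) and 19 in EpiLC dCD (14.7%). Under 0.85 were 2 in naive dCD (2.18%) and 0 in EpiLC dCD (1.78%). The dCD profile covered a wider range than that of the dKO.

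**Figure D3:**
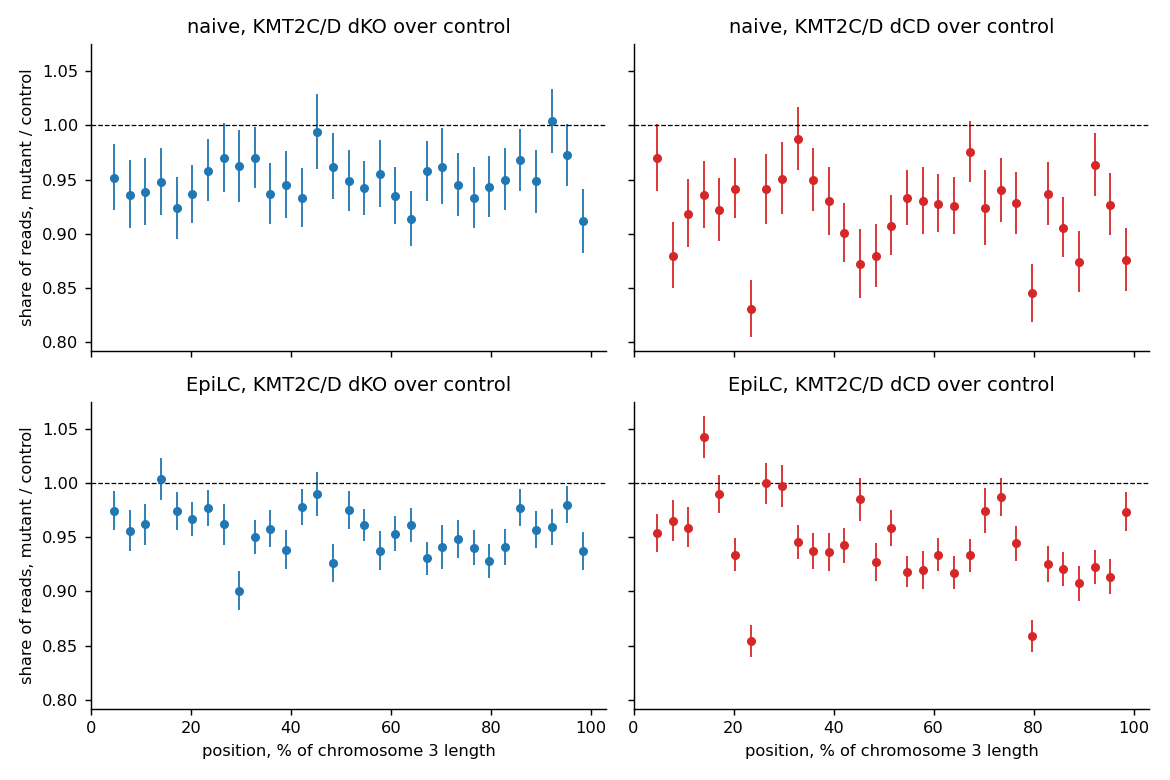
Share of reads in windows of 5 Mb, mutant over control of the same state, along chromosome 3 (position as a percentage of its length); bars are 95% intervals of counting error. In the dKO (blue) the windows lie between 0.901 and 1.0 at every position plotted, and in the dCD (red) 2 windows, the same in both states, fall to between 0.831 and 0.859.

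At 1 Mb, 75 of 157 windows (47.8%) were under 0.95 of the control in naive dKO, against 14.4% of all windows of the genome, and 64 (40.8%) in EpiLC dKO, against 12.7%. In the dCD, 102 windows (65.0%) were under 0.95 in naive ESCs and 79 (50.3%) in EpiLCs, against 23.6% and 20.6%. As the same contrast chose the chromosome, these shares describe it and are no finding of their own. Under 1 were 139 windows in naive dKO (47.7% of all windows), 148 in naive dCD (50.2%), 141 in EpiLC dKO (50.2%) and 121 in EpiLC dCD (48.1%). Values under 0.85 occurred in the dCD, in 16 naive (4.22% of all windows) and 8 EpiLC windows (3.15%), and in 0 windows of the dKO (0.118% and 0.236%). In all 4 comparisons at once, 98 of the 157 windows were under 1, and 215 of 2381 elsewhere.

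The spread between windows shows how even or uneven the difference was. In EpiLC dKO the SD of the log2 ratio over the 1 Mb windows of chromosome 3 was 0.05, where counting alone would give 0.03, and over the other chromosomes it was 0.06. Of the EpiLC dKO windows, 85 had intervals below 1 and 3 above 1, the highest being chr3:4000001-5000000 at 1.06 (1.01 to 1.11). On the other chromosomes, 333 of 2381 had intervals below 1 and 385 above 1. In EpiLC dCD the SD was 0.10, where counting alone would give 0.03, and 0.14 on the other chromosomes. Of the EpiLC dCD windows, 88 had intervals below 1 and 9 above 1, with ratios from 0.717 to 1.09. On the other chromosomes, 570 of 2381 had intervals below 1 and 739 above 1, with ratios from 0.183 to 1.54. The SD of the other chromosomes pools all their windows and so includes differences between chromosomes. How much windows vary within any other single chromosome was not computed.

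Relative to the other autosomes, the difference was present at every level of GC and gene content. Windows of chromosome 3 were divided into 4 equal groups by GC, and each group was set against windows of the other autosomes in the same GC range. In naive dKO the 4 groups were at 0.937 to 0.945 of the other autosomes, and in EpiLC dKO at 0.945 to 0.968. The dCD gave 0.912 to 0.938 in naive ESCs, and in EpiLCs it went from 0.954 in the GC-poorest to 0.920 in the GC-richest group. Groups by the number of protein-coding gene starts were at 0.911 to 0.963 over the 4 comparisons. Gene-poor and gene-rich windows were thus both lower than like windows elsewhere. Against the control alone, EpiLC dCD was at 0.996 (0.990 to 1.003) in the gene-poorest group of chromosome 3 and 0.904 (0.899 to 0.909) in the gene-richest. On the other autosomes these groups were at 1.05 and 0.983. By GC, the poorest group of chromosome 3 was at 0.991 and the richest at 0.912.

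The dCD tracks also had local troughs. By a rule chosen after the values were seen (100 kb windows smoothed over 500 kb, under 0.85 of the control in both states, at least 1 Mb long), chromosome 3 had 2 such stretches, 4.6 Mb in all, and in the dKO 0. The other chromosomes had 28 in the dCD, on 12 of them, and 5 chromosomes had more than chromosome 3. In the dKO the other chromosomes had 1. Such stretches in the dCD tracks were therefore not particular to chromosome 3. Their part in the chromosome's share was small, as without them its ratio was 0.927 (0.921 to 0.932) in naive and 0.948 (0.945 to 0.951) in EpiLC dCD.

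The first, chr3:35800001-38600000, spans 2.8 Mb and 25 protein-coding gene starts. It holds Ccna2 (cyclin A2, of S phase and mitosis), Fgf2 (a fibroblast growth factor), Spry1 (an inhibitor of that signalling) and the cytokine genes Il2 and Il21. It had 5640 reads in the naive control, 4730 in naive dKO and 3600 in naive dCD, and 14951, 16338 and 14340 in the EpiLC tracks. The dCD ratio was 0.770 (0.738 to 0.803) in naive ESCs and 0.803 (0.785 to 0.822) in EpiLCs, while the dKO ratio of 0.939 (0.904 to 0.977) and 0.962 (0.941 to 0.983) was close to that of the whole chromosome.

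The second, chr3:126300001-128100000, spans 1.8 Mb and 10 gene starts, among them Camk2d (a calcium/calmodulin-dependent kinase), Ank2 (an ankyrin that anchors membrane proteins), Larp7 (which binds the 7SK RNA) and Neurog2 (a proneural transcription factor). Its reads numbered 3766, 3158 and 2372 in naive control, dKO and dCD, and 10830, 11286 and 9428 in EpiLCs. The dCD ratio was 0.760 (0.721 to 0.80) in naive ESCs and 0.729 (0.709 to 0.75) in EpiLCs. The dKO was at 0.939 (0.896 to 0.985) in naive ESCs and at 0.917 (0.893 to 0.942) in EpiLCs, the latter below the whole chromosome's 0.957. Against the dKO in place of the control, dCD was at 0.809 (0.767 to 0.853) and 0.795 (0.774 to 0.817) in naive ESCs and EpiLCs, which uses the same dCD reads that chose the stretch. Both stretches were read-rich in the controls, at 1.12 to 1.29 times the mean density of the chromosome, and in the dKO, at 1.10 to 1.24 times. In the dCD, whose low ratio to the control chose the stretches, they were at 0.932 to 1.0 times.

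Reads within 250 kb of the start of 40 listed genes gave the difference at single loci. Of the 40, 22 were under 0.95 of the control in naive dKO, where 20.3% of all 500 kb windows of the genome were, and 19 in EpiLC dKO (16.0%). In the dCD, 27 were under 0.95 in naive ESCs (27.6% of all windows) and 31 in EpiLCs (23.5%). Under 1 were 33 genes in naive dKO (48.1% of all 500 kb windows), 34 in naive dCD (50.7%), 35 in EpiLC dKO (49.9%) and 37 in EpiLC dCD (47.6%). Of the 314 windows of 500 kb on chromosome 3 itself, 252, 274, 261 and 228 were under 1 in the same order, so that most of the listed genes shared what the chromosome did. The median gene was at 0.947 and 0.951 in naive and EpiLC dKO and at 0.930 and 0.921 in naive and EpiLC dCD.

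Among 21 genes of signalling, pluripotency and development, 12 were under 0.95 in naive dKO (20.3% of all 500 kb windows), 9 in EpiLC dKO (16.0%), 12 in naive dCD (27.6%) and 16 in EpiLC dCD (23.5%). Of the 314 windows of chromosome 3 itself, 150, 135, 199 and 156 were under 0.95 in the same order. Around Sox2 the tracks held 1214, 1022 and 981 reads in naive control, dKO and dCD and 2898, 3527 and 3285 in EpiLCs. Its ratio was 0.943 (0.867 to 1.03) in naive dKO but 1.07 (1.02 to 1.13) in EpiLC dKO. It was the single gene of the 40 with an interval above 1 in EpiLC dKO, and it was chosen for display after its value was seen. Of windows of 500 kb, 8 of 314 on chromosome 3 and 587 of 4735 elsewhere had such an interval. Around Dkk2, an inhibitor of Wnt signalling, EpiLC dCD was at 1.11 (1.04 to 1.17) and EpiLC dKO at 0.906 (0.854 to 0.962), on opposite sides of the control. Around Lef1, a nuclear effector of Wnt signalling, naive dKO was at 0.854 (0.782 to 0.932), the lowest of the list in that comparison.

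Fgf2 and Ccna2 showed the first dCD stretch. Around Fgf2 the naive tracks held 979 reads in the control, 835 in the dKO and 603 in the dCD, and the dCD ratio was 0.743 (0.670 to 0.823). Around Ccna2 it was 0.753 (0.679 to 0.834) in naive and 0.739 (0.70 to 0.780) in EpiLC dCD, against 0.946 and 0.945 in the dKO. The 6 genes of cell growth, the nucleus and telomeres, Ccna2 among them, were under 1 in all 4 comparisons, where 47.6% to 50.7% of all 500 kb windows and 228 to 274 of the 314 on chromosome 3 were.

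The genes listed as giant, a kind whose bodies are often replicated late, were mostly lower too. Of these 8 genes, 7 were under 1 in naive dKO (48.1% of all 500 kb windows, and 252 of 314 on chromosome 3) and 8 in EpiLC dKO (49.9%, and 261 of 314). In the dCD, 6 were under 1 in naive ESCs (50.7%, and 274 of 314) and 6 in EpiLCs (47.6%, and 228 of 314), and the highest were at 1.05. Ank2, which like Camk2d lies in the second dCD stretch, was at 0.773 (0.704 to 0.849) in naive and 0.735 (0.70 to 0.772) in EpiLC dCD. Mecom (597 kb) and Bmpr1b (332 kb), listed with the signalling genes, are longer than Camk2d (250 kb) and Adgrl2 (175 kb) of the 8. They were at 1.03 and 1.01 in naive dCD, and under 1 in EpiLC dCD and in the dKO of both states. Nlgn1, a synaptic adhesion gene, was at 1.05 in naive and 1.02 in EpiLC dCD, and at 0.962 and 0.929 in the dKO. Of 5 genes taken from gene clusters, 1 was under 1 in naive dKO (48.1% of all 500 kb windows), and their median was 1.01. Lor (0.895 to 1.13), S100a8 (0.970 to 1.16), Adh1 (0.923 to 1.10) and Gbp2 (0.927 to 1.11) were at 1.0 to 1.06, with intervals that included 1 and, but for S100a8, also the chromosome's own 0.949. In EpiLC dKO (49.9% of all windows) and EpiLC dCD (47.6%) all 5 were under 1, and in naive dCD (50.7%) 3 were. Flg, of the epidermal differentiation cluster, was at 0.797 (0.721 to 0.881) and 0.784 (0.741 to 0.83) in naive and EpiLC dCD.

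Fork polarity was not used to choose the chromosome. Its amplitude is how far the Crick percentage of 50 kb bins spreads along the chromosome, as an SD corrected for counting noise. It was 12.8 points in the naive control, 13.5 in naive dKO and 16.8 in naive dCD. In EpiLCs it was 9.61 in the control, 10.7 in the dKO and 11.9 in the dCD. Chromosome 3 was within the range of the other autosomes in every track but EpiLC dCD, where it was the lowest of 19 (others 12.1 to 13.6). With 500 kb bins EpiLC dCD was the 7th highest (8.70, others 8.03 to 9.69), and the naive control was instead the highest of 19 (8.52, the next at 8.51).

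As a ratio to the control, the amplitude was 1.05 in naive dKO, where the other autosomes had a median of 1.05, and 1.12 in EpiLC dKO, where they had 1.10. In the dCD it was 1.31 in naive ESCs (others 1.32) and 1.24 in EpiLCs (others 1.27). At 50 kb each ratio was within the range of the other autosomes. At 500 kb this did not hold for naive dKO, whose ratio of 1.10 was the lowest of 19 (others 1.10 to 1.17), while the other 3 ratios were within the range.

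The amplitude ratio varied along the chromosome. Of the 8 segments of 20 Mb, 7 were higher than the control in naive dKO and 8 in each of the other 3 comparisons. Segments of other chromosomes were not measured, but every other autosome as a whole was higher too. Their lowest ratios were 1.03 in naive dKO, 1.07 in EpiLC dKO, 1.27 in naive dCD and 1.23 in EpiLC dCD. The ratio ranged from 0.970 to 1.14 in naive dKO, from 1.08 to 1.2 in EpiLC dKO, from 1.21 to 1.38 in naive dCD and from 1.2 to 1.28 in EpiLC dCD. Crick percentages of 314 windows of 500 kb correlated between tracks with a Pearson's r of 0.886 to 0.956, given as a description since the windows of a track share its depth and base composition.

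Part of the strand signal followed base composition. From the fifth of the 1 kb bins with the fewest T over A to the fifth with the most, the Crick percentage of naive control reads went from 26.1 to 74.1, and that of EpiLC control reads from 34.1 to 66.5. After correction for T minus A content, the amplitude ratios were 1.07 and 1.08 in naive and EpiLC dKO and 1.4 and 1.25 in naive and EpiLC dCD.

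Where forks start on the chromosome was read from steps of the Crick percentage, 100 kb to the right minus 100 kb to the left of a site. The 10 largest upward and 10 largest downward steps were selected in the EpiLC control. Its own values are therefore inflated, no difference of an EpiLC mutant from it is read, and the naive tracks, which had no part in the selection, are compared. The upward steps had a mean of 37.6 points in the naive control (counting SE 1.4, 10 sites), 39.1 (1.54) in naive dKO and 48.3 (1.48) in naive dCD. All 10 were upward in all 6 tracks. The naive dCD steps were larger than those of the naive control, and the dKO steps differed from them by less than the counting error. Steps of other chromosomes were not measured. The naive dCD amplitude of the other autosomes was also higher, at 1.27 to 1.35 times that of the naive control. The difference of naive dCD from the naive control, 10.7 points, was 7.08 points with steps selected in EpiLC dCD.

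At Shox2 the site lay 1229 bases from the gene start. The Crick percentage there went from 43.9 to 79.0 in the naive control, from 31.7 to 83.4 in naive dKO and from 42.3 to 88.7 in naive dCD, on 142 to 176 reads a side. At Ect2 (5122 bases) the step was 44.7 points (36.9 to 52.5) in the naive control, 37.8 (28.1 to 47.5) in naive dKO and 55.8 (47.4 to 64.3) in naive dCD. At Rabggtb (2991 bases) the steps were 32.9 (24.5 to 41.4), 45.3 (36.5 to 54.1) and 35.9 (25.7 to 46.1). The intervals of single sites overlapped between the genotypes at these 3 genes.

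Among the upward steps, the largest difference from the naive control was at Ankrd13c, an ankyrin repeat gene 10239 bases from its site, where the step was 35.9 points (27.6 to 44.2) in the naive control, 33.2 (23.7 to 42.7) in naive dKO and 60.7 (52.4 to 68.9) in naive dCD. Other genes with a start within 100 kb of an upward step were Tpd52, Ccnl1, Fxr1, Ppp3ca, Ppid and Zfhx4. At Fxr1, which encodes an RNA-binding protein, naive dCD reached 66.6 points (58.8 to 74.5) and the naive control 49.1 (41.3 to 56.8).

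The downward steps, where forks merge, had a mean of -18.4 points in the naive control (counting SE 1.60), -21.2 (1.71) in naive dKO and -21.2 (1.82) in naive dCD. The counting intervals of these 3 means overlapped, and the difference of naive dKO from the control, -2.72 points, was 4.51 with steps selected in EpiLC dCD. Of the 10 sites, 5 had no protein-coding gene start within 100 kb, and the others were nearest to Zfp704, Ddah1, Kcnn3, Gbp2 and Adh1. At Gbp2, of the interferon-induced guanylate-binding proteins, the step was 1.67 points (-8.21 to 11.5) in the naive control, -18.7 (-28.4 to -8.94) in naive dKO and -4.22 (-14.3 to 5.87) in naive dCD. It was the 1 downward site of 10 with the opposite sign in the naive control, and is shown as that extreme.

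**Figure D4:**
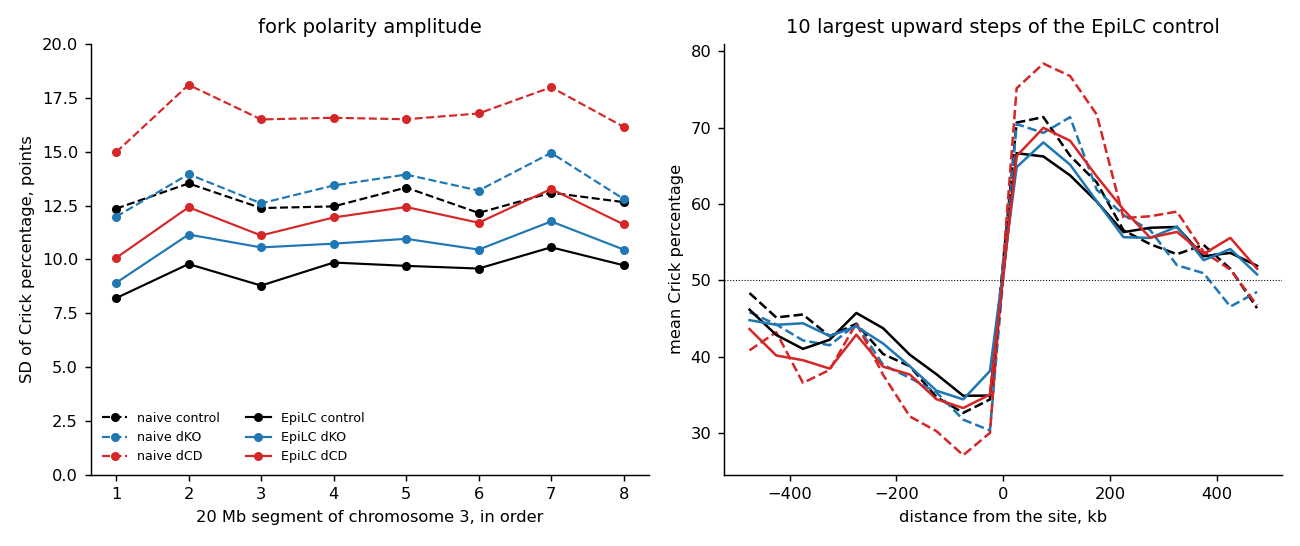
Left, fork polarity amplitude in the 8 segments of 20 Mb of chromosome 3 in the 6 tracks (dashed, naive; solid, EpiLC). Right, mean Crick percentage in 50 kb bins around the 10 largest upward steps of the EpiLC control, where naive dCD rises most, with a mean step of 48.3 points against 37.6 in the naive control.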

How the data were processed

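OK-seq was measured in 12 samples, 2 replicates in each of 6 groups taken from the labels. Alignment to mm10 was by bowtie2 and strands were binned apart by the authors, as the methods state; the submitters' processing notes also name FastQC, Trim Galore, Picard and hg19, and whether duplicates were removed is not given in the sources used here. The authors deposited 1 file per group with Watson and Crick signal per 1 kb bin, in reads per base with both replicates summed and libraries not scaled to each other. Each deposited value times 1000 was a whole number of reads (largest deviation 2.27e-13), and the position was taken as the bin's end, as 0 reads then fell in bins of unknown bases only, against 3139 otherwise.

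From these, read shares were computed over the autosomes and X, without 83 bins above 10 times the median pooled count of 20, of which 2 were on chromosome 3. A ratio is the mutant share over the share of the control of the same state. Its interval comes from the exact binomial split of the reads of both tracks, and covers counting error only, since PCR copies could not be told from molecules. Step intervals are normal approximations. Windows needed at least 0.5 of their bins usable and 100 reads in each track, and steps 50 reads on each side. With replicates summed, no test was run and no p-value is given. Chromosome 3, the lists and the limits were chosen with earlier results of these data known.

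Genes named are those of a list of 40 of chromosome 3, the nearest protein-coding start (GENCODE M21) within 100 kb of a step, and, chosen after their values were seen, genes in the dCD stretches; of 5 Mb windows, the highest and lowest of each comparison are given. Of 8 promoters looked up, 7 matched RefSeq by symbol. The code was tested on simulated tracks, where planted chromosome 3 ratios came back within 0.00259 and planted amplitudes within 0.178 points. Python 3.11.15, numpy 2.4.6, pandas 2.3.3 and scipy 1.17.1 were used. Alternatives covered the bins left out, the total, strand, base composition, depth, window and bin sizes and limits.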

Additional observations from a re-analysis of the deposited data

Results flagged for a closer look

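Of 162 pairs of naive and EpiLC ratios looked at on chromosome 3, 1 had counting intervals on opposite sides of 1. In chr3:20000001-25000000, dCD over control was 0.936 (0.906 to 0.967, 6301 against 8120 reads) in naive ESCs and 1.04 (1.02 to 1.06, 24133 against 19396 reads) in EpiLCs. The difference between the states was not tested. In the same window the EpiLC control was at 0.922 (0.898 to 0.946) of the naive control.

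Chromosome Y entered no comparison of the report. Its share of all reads in the dKO was 1.08 times that of the control in both states, with intervals of 1.03 to 1.13 in naive ESCs and 1.05 to 1.11 in EpiLCs. In the dCD it was at 0.814 (0.773 to 0.857) and 0.862 (0.838 to 0.887).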

How the results depend on the processing

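The read ratio of chromosome 3 was under 1 in all 4 comparisons and under all 9 alternatives. It left the counting interval of the reported value in these cases: with chromosomes 2, 4, 6 and 18 out of the total, 0.929 in naive and 0.946 in EpiLC dCD; with tracks thinned to the smallest, 0.960 in EpiLC dKO; divided by the median of the other autosomes, 0.951 in EpiLC dKO; divided by the ratio of windows of the same GC, 0.939 in naive dKO and 0.926 in EpiLC dCD; and, added after the data were seen, without the 2 dCD stretches, 0.927 in naive and 0.948 in EpiLC dCD. The share of 1 Mb windows under the limit moved by over 1.5 times with the limit itself. Under 0.9 it was 11.5% in naive dKO, 32.5% in naive dCD, 5.73% in EpiLC dKO and 21% in EpiLC dCD, and under 1 it was 88.5% in naive dKO, 89.8% in EpiLC dKO and 77.1% in EpiLC dCD. The amplitude ratio stayed above 1 under every alternative. It moved by more than 1 SD of the other autosomes' ratios with 100 kb bins (1.07 in naive dKO, 1.35 in naive dCD), with 500 kb bins (1.10 in naive dKO, 1.44 in naive dCD, 1.31 in EpiLC dCD) and without the T minus A part (1.07 in naive dKO, 1.4 in naive dCD, 1.08 in EpiLC dKO). Counts of listed genes under 0.95 stayed within 1.5 times.

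With steps selected in EpiLC dCD in place of the EpiLC control (an alternative added after the data were seen), the mean upward step, mutant minus control, went from -1.45 to 3.13 points in EpiLC dKO, from 2.36 to 11.7 in EpiLC dCD and from 10.7 to 7.08 in naive dCD. The downward difference went from -2.72 to 4.51 in naive dKO, from 7.82 to -2.64 in EpiLC dKO and from 5.31 to -10.2 in EpiLC dCD. The EpiLC differences follow which EpiLC track chose the steps and are not read. The naive tracks had a part in neither selection, and of their 4 differences 1, the downward one of naive dKO, turned sign, for which the cause was not tested.

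No paired analysis was possible because the replicates are summed in the deposited tracks, and leaving out a replicate was impossible for the same reason. Depth limits the naive values most: single 5 Mb windows there have intervals of about 0.03 on either side.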
